A study of Mus musculus with 18 samples.

Results

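Primary mouse microglia that carried 1 disrupted allele of Tbk1 together with a heterozygous Tak1 allele (genotype Tbk1+/-;Tak1ΔM/+, here double heterozygous) were compared with microglia that carried the Tak1 allele alone (Tak1ΔM/+). The members are the 3 libraries labelled with each of these genotypes, 6 of the 18 libraries of the series, read across the 13447 of 50686 listed genes that passed the filter on low counts. Both groups share Tak1ΔM/+, so the Tbk1 allele is the labelled difference between them. Mice were C57BL/6, and microglia, the resident macrophages of the brain, were grown from forebrains taken on postnatal day 2. Mixed cultures were kept for 7 days, then for 7 more in changed medium, before the microglia were shaken off. The labels do not name the Cre line or the cells behind ΔM, the sex of the pups, or how many animals or cultures stand behind each group. The p-values therefore measure the spread between libraries, which may be technical.

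TBK1 and TAK1 (encoded by Map3k7) are kinases of innate immune signalling. TBK1 phosphorylates IRF3 downstream of nucleic acid sensors, which drives production of type I interferon, and both kinases restrain the death-inducing activity of RIPK1 at the tumour necrosis factor (TNF) receptor. Secreted interferon signals through its receptor to a complex that holds STAT2 and IRF9, which binds the interferon-stimulated response element (ISRE) of antiviral genes. In the double heterozygous libraries 24 of 51 tested interferon effector genes were called higher, and 12 of 38 mitosis genes and 20 of 30 ribosomal protein genes were called lower. Among all genes tested 0.736% were called higher and 2.05% lower. By limma-voom 0 of the mitosis genes were called.

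The libraries held 8016559 (double heterozygous replicate 2) to 20185052 counts, and 15548 to 17433 genes with counts. Defining myeloid markers were present in all 6: Csf1r, the receptor for the survival factor of macrophages, was at 1905 to 2407 CPM (counts relative to the library total, scaled for composition). Of the markers that separate microglia from other macrophages, Tmem119 was at 2.82 to 4.39 CPM and P2ry12 at 2.97 to 17.4 CPM, and Siglech had 2 counts in all 6 libraries together. Tak1ΔM/+ replicate 1 stood apart from its group on the first principal component. Its mitochondrially encoded share of counts was 0.453%, against 1.41% and 1.505% in the other Tak1ΔM/+ libraries and 0.367% to 0.512% in the double heterozygous libraries. Y-linked genes summed to 0, 0 and 3.02 unscaled CPM in the Tak1ΔM/+ libraries and to 75.9 to 99.5 in the double heterozygous libraries. Xist, listed as higher in females, was at 130 to 190 unscaled CPM against 76.1 to 97.0 CPM. Counts of both kinds were thus present in every double heterozygous library, and sex and genotype cannot be told apart in this comparison.

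The Tbk1 transcript checks the labels. Tbk1 (chromosome 10, 121546455 to 121586787, GRCm38) was at 133, 106 and 88.0 CPM in the Tak1ΔM/+ libraries and at 55.1, 56.4 and 66.0 CPM in the double heterozygous libraries. Every double heterozygous library lay below every Tak1ΔM/+ library, with a log2 fold change of -0.88 (SE 0.25) and an adjusted p of 0.0684 in edgeR's quasi-likelihood test, which misses the threshold of 0.05. Levels of Map3k7, the gene of TAK1, overlapped, at 9.98, 8.96 and 7.34 CPM against 15.8, 11.4 and 6.57 CPM. Ripk1 was at 14.5 to 46.9 CPM against 49.0 to 71.0 CPM without overlap, with an adjusted p of 0.355 by edgeR. Ripk1 overlaps tested genes on the other strand, whose reads cannot be told from its own in unstranded libraries.

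Of the genes tested, 375 (2.79%) were called by edgeR at an adjusted p under 0.05, 99 higher (0.736%) and 276 lower (2.05%) in the double heterozygous libraries. The change was at least 1 on the log2 scale in 63 of the higher and 106 of the lower genes. The median log2 fold change over all genes tested was 0.0063. The count depends on single libraries: it ranged from 111 without double heterozygous replicate 1 to 568 without Tak1ΔM/+ replicate 1. With each of the 6 libraries left out in turn, 80 of the 375 genes (15 higher, 65 lower) were called every time. Of the 69 called genes under the naming rule, 24 kept the call in all 6 of these fits, and 7, Ifit1, Ifit3, Ddx60, Nfkb2, Tnfsf9, Fos and H2-Q4, kept it in none.

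**Figure D1:**
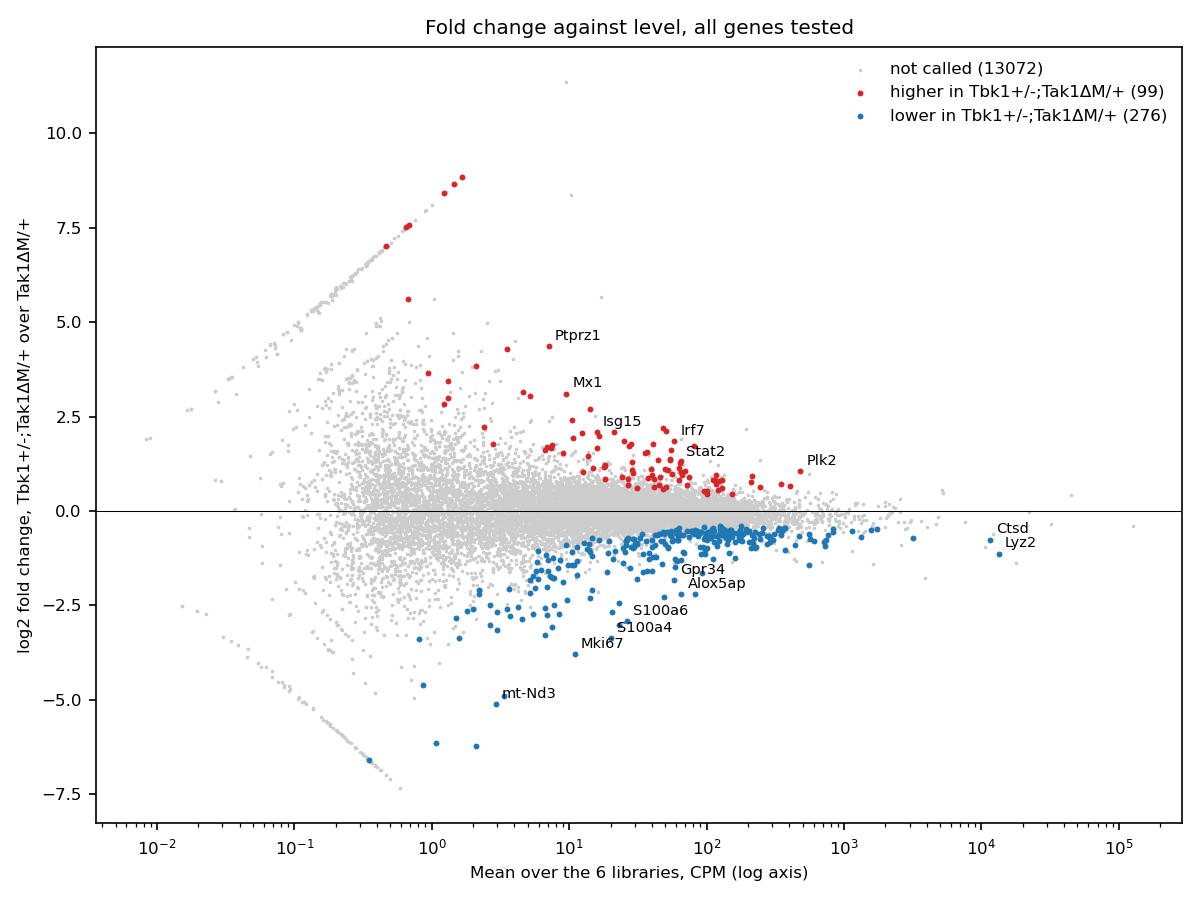
Each point is 1 of the genes tested, with its mean CPM over the 6 libraries (log axis) and its log2 fold change, double heterozygous over Tak1ΔM/+. Red and blue points are the 99 higher and 276 lower genes, and the diagonal edges at low CPM are genes with no counts in 1 of the groups.

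**Figure D2:**
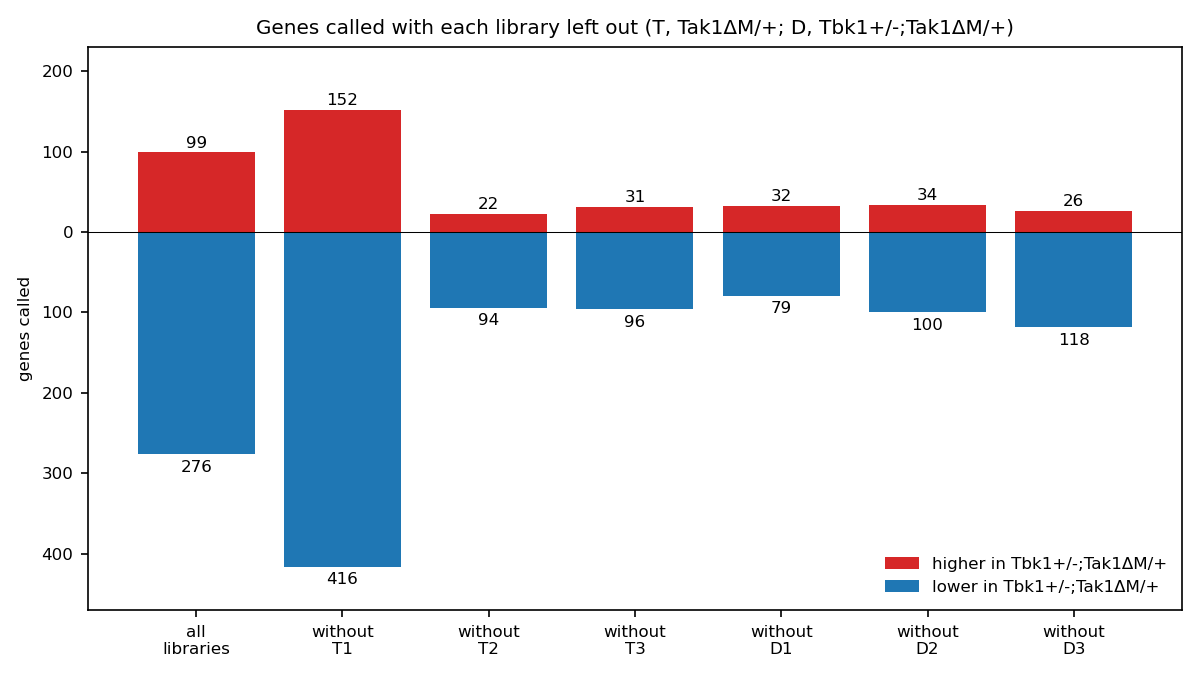
Bars give the genes called higher (red, upward) and lower (blue, downward) with all libraries and with each of the 6 left out. Leaving out Tak1ΔM/+ replicate 1 (T1) raised the count to 568, and leaving out any of the other 5 lowered it to between 111 and 144.

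Promoters of interferon-induced genes carry the ISRE, and 3 of those whose genes rose are shown as examples with 2 or more matches. The stretches are the 250 bases before the start, 5′ to 3′ on the gene's strand, from RefSeq (GRCm38.p6). They belong to Isg15 (chr4:156200819-156201068, minus strand), Ifit3 (chr19:34583279-34583528, plus strand) and Oas1a (chr5:120907526-120907775, minus strand). Capitals mark matches to the ISRE core GAAANNGAAA or its reverse complement TTTCNNTTTC, overlapping matches included.
Isg15: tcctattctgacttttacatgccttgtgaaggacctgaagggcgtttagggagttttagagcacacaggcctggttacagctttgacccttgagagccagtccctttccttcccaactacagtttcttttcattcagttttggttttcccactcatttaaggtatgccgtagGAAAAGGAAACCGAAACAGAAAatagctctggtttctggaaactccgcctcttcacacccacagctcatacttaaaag
Ifit3: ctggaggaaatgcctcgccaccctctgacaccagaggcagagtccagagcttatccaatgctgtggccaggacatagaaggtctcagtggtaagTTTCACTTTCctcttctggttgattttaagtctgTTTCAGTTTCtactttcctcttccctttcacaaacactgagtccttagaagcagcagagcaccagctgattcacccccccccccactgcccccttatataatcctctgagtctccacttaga
Oas1a: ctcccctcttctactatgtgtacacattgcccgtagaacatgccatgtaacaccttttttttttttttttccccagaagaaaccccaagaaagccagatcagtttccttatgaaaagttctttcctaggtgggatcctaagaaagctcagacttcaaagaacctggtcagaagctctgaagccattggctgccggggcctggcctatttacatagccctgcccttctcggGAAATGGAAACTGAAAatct

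Isg15 held 3 overlapping matches, and Ifit3 and Oas1a held 2 each. Searched on both strands, the core was present in 20 of the 40 interferon effector genes with a promoter entry (50.0%). It was in 19 of 80 genes called higher (23.8%), 11 of 205 called lower (5.37%), 3.46% of all tested genes with an entry and 2.98% of all 32851 promoters. No match was present in this window for Irf7, Cmpk2 or Ifi209, which says only that these letters are not in it.

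Of 51 tested effector genes of the interferon response, 24 were called higher and 0 lower by edgeR, against 0.736% called higher among all genes. The other members included 19 more whose double heterozygous libraries all lay above the Tak1ΔM/+ libraries, which makes 43 in all, against 12% of all genes tested. The median log2 fold change of the list was 1.23, and 49 members were above 0. Without Tak1ΔM/+ replicate 1 the called count was 15 higher and 1 lower. The higher count ranged from 9 to 39 over all alternatives tried.

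Isg15, a ubiquitin-like protein that is conjugated to other proteins in infected cells, had the smallest adjusted p of the list. It was at 6.15, 5.63 and 6.31 CPM in the Tak1ΔM/+ libraries and at 26.1, 25.4 and 25.8 CPM in the double heterozygous libraries. The 3 double heterozygous libraries were all high, with no overlap, and the log2 fold change was 2.09 (SE 0.24, edgeR adjusted p = 0.000356). Usp18, which removes ISG15 from proteins and dampens interferon receptor signalling, was at 5.88, 8.55 and 10.1 CPM against 29.8, 37.9 and 35.8 CPM. The groups of Usp18 were again apart, and it rose by 2.08 (SE 0.34) on the log2 scale with an edgeR adjusted p of 0.00315. Mx1, a dynamin-like GTPase with antiviral activity, was at 1.82, 1.76 and 2.33 CPM against 17.8, 13.1 and 20.01 CPM. Its log2 fold change of 3.11 (SE 0.69) had an edgeR adjusted p of 0.0209, and the call was kept in 1 of the 6 fits with a library left out.

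The 2'-5' oligoadenylate synthetases make the second messenger that activates RNase L. Oas2 rose by 2.69, Oas1g by 1.97 and Oas1a by 1.14 on the log2 scale. Oas1a and Oas1g are close copies, so how reads were shared between them is uncertain, as it is between Ifit3 and Ifit3b. The IFIT proteins bind foreign RNA: Ifit1 was at 4.60, 24.7 and 27.5 CPM against 86.9, 85.8 and 72.0 CPM, with Tak1ΔM/+ replicate 1 the lowest of all. Ifit1 rose by 2.11 and Ifit3 by 2.18 on the log2 scale, as did Ddx60 by 2.06, and none of these 3 calls was kept with any 1 library left out. Cmpk2 rose by 1.78, a call kept in 1 of 6 such fits, and Ifi209 and the schlafen gene Slfn8 rose by 1.84 and 1.55. Isg15, Oas1a, Oas1g, Phf11d, Slfn8 and Usp18 were the 6 list members called whichever library was left out (Phf11d was named after its values were seen).

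Upstream of these effectors, 17 interferon transcription factors and receptors were tested. Of these 3 were called higher and 0 lower, against 0.736% and 2.05% of all genes, with a list median of 0.21 on the log2 scale. Irf7, the factor that amplifies interferon production, was at 20.6, 26.3 and 28.4 CPM in the Tak1ΔM/+ libraries and at 92.6, 91.2 and 88.3 CPM in the double heterozygous libraries. The groups did not overlap, and Irf7 rose by 1.85 (SE 0.26, edgeR adjusted p = 0.00134). Irf7 overlaps a tested gene on the other strand. Stat2 was at 41.2, 35.2 and 36.3 CPM against 94.9, 85.7 and 92.3 CPM, again without overlap, a rise of 1.28. Of the interferon genes themselves none was tested, and Ifnb1 had 8 counts over the 3 double heterozygous and 4 over the 3 Tak1ΔM/+ libraries. Among 19 tested genes of nucleic acid sensing and the adaptors that recruit TBK1, 0 were called higher by edgeR, 1 by DESeq2 and 1 by limma-voom, and 2 were higher at an unadjusted p under 0.05. The 1 call in the other direction, against 2.05% of all genes called lower, was Tlr7, the endosomal sensor of single-stranded RNA. Tlr7 lies on the X chromosome and fell by 0.97.

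**Figure D3:**
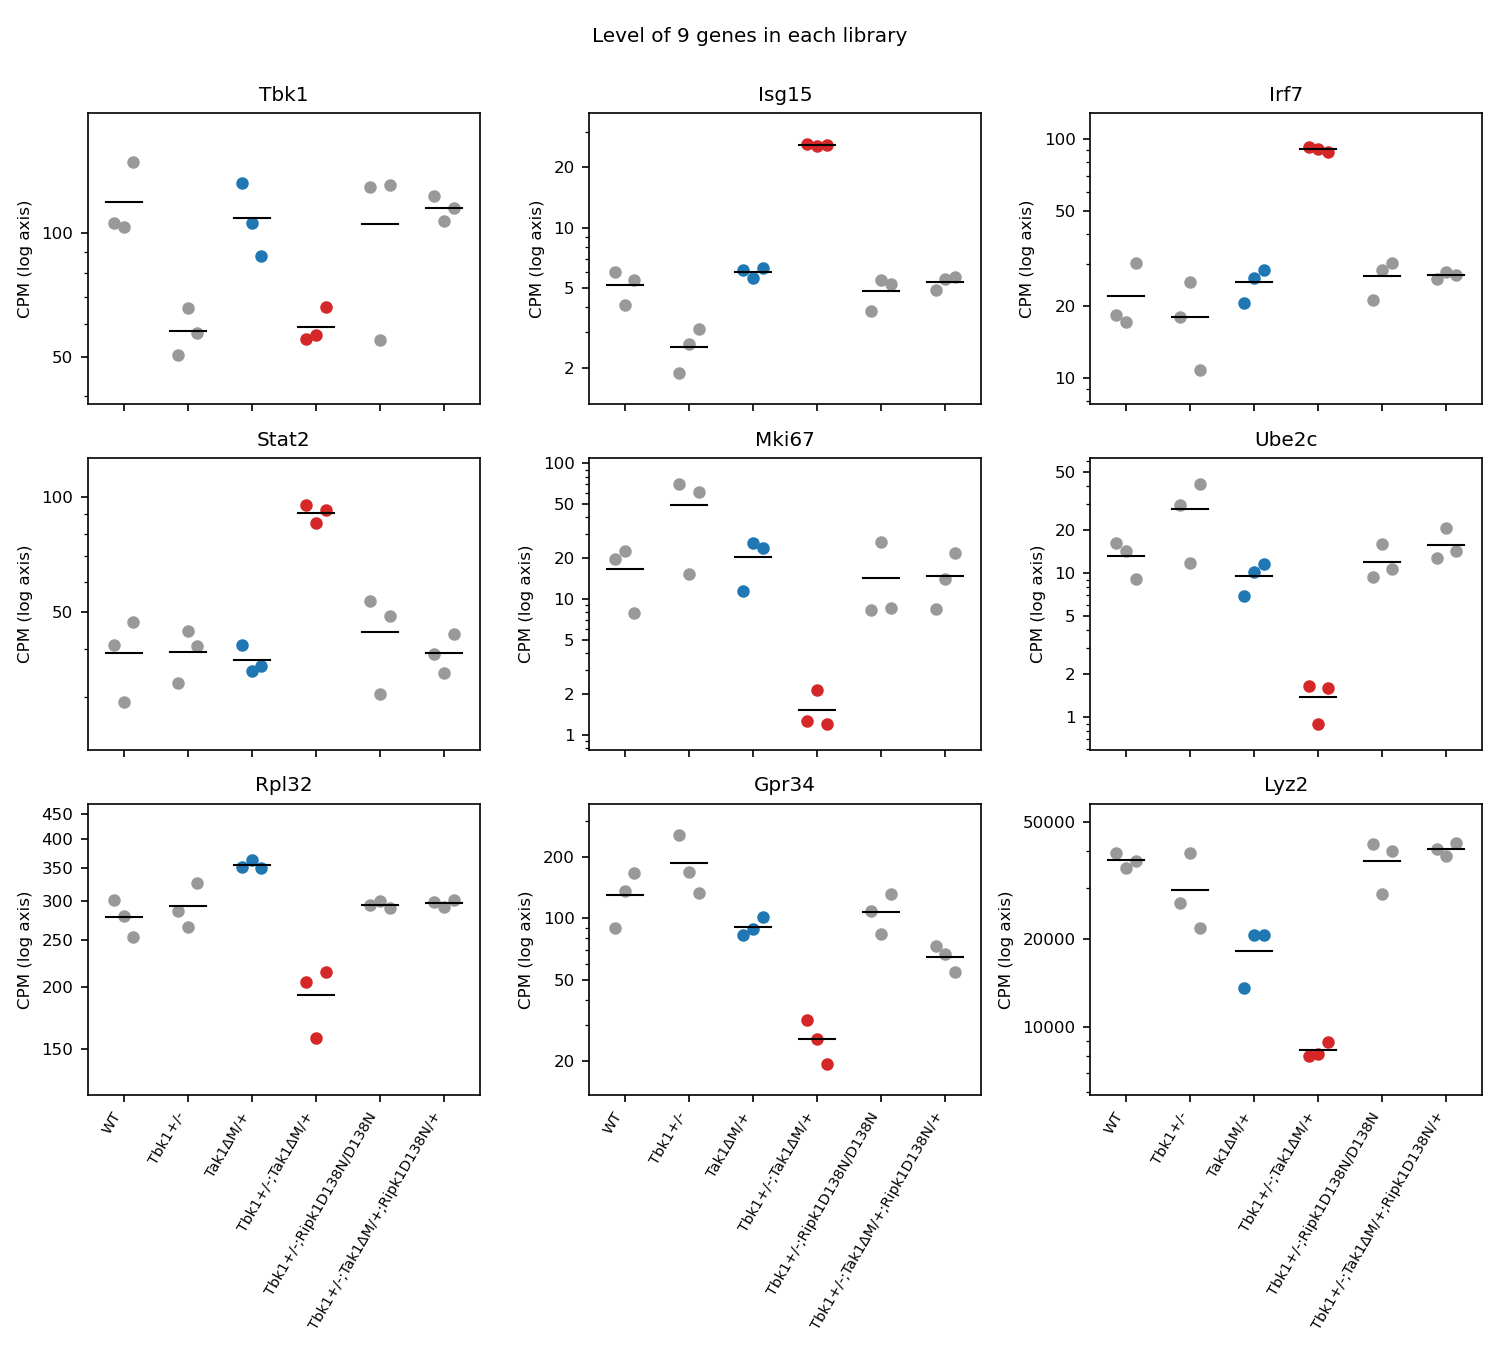
Points are the CPM (log axis) of 9 genes in the 3 libraries of each of the 6 genotypes, and bars are group means. Isg15, Irf7 and Stat2 are higher, and Mki67, Ube2c, Rpl32, Gpr34 and Lyz2 lower, in all 3 double heterozygous libraries (red) than in all 3 Tak1ΔM/+ libraries (blue).

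The labelled levels in the other genotypes place these values. Isg15 averaged 5.20 ± 0.971 CPM in wild type, 2.54 ± 0.623 in Tbk1+/- and 5.36 ± 0.430 (SD, n = 3 each) in Tbk1+/-;Tak1ΔM/+ with 1 Ripk1 D138N allele, a kinase-dead form. Irf7 averaged 21.9 ± 7.34, 18.03 ± 7.27 and 26.9 ± 0.820 CPM in the same order. All of these lay below the double heterozygous means of 25.8 ± 0.369 CPM for Isg15 and 90.7 ± 2.23 CPM for Irf7. In these libraries of the triple genotype Tbk1 averaged 115 ± 7.93 CPM, near its wild-type mean of 119 ± 25.6 and not near the 57.7 ± 7.55 of Tbk1+/-. In the libraries labelled Tbk1+/- with Ripk1 D138N on both alleles, Tbk1 was at 129.8, 54.9 and 131.3 CPM. The Tbk1 transcript thus goes against the label in the triple genotype and in 2 of the other 3 libraries. Both genotypes entered the fit, and without them 279 genes were called.

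Whether the Tbk1 allele acted differently with and without the Tak1 allele was tested as the difference between 2 differences, double heterozygous minus Tak1ΔM/+ against Tbk1+/- minus wild type, which share no library. Here 235 genes (1.75%) were called by edgeR, and 156 of them were also among the 375. Isg15 differed by 3.13 on the log2 scale (edgeR adjusted p = 0.000645): the Tbk1 allele went with a log2 fold change of 2.09 with the Tak1 allele and of -1.04 (adjusted p = 0.1497) without it. Irf7 differed by 2.13 and Stat2 by 1.26. The difference was called for 9 of 51 interferon effectors, 16 of 38 mitosis genes and 15 of 30 ribosomal protein genes, against 1.75% of all genes. Over the alternatives these counts ranged from 3 to 31, 1 to 37 and 1 to 22, and they were 3, 2 and 1 once the mitochondrial share was a covariate. The count of 235 ranged from 46 to 712 with 1 library left out.

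Of 32 tested members of the TNF receptor, RIPK1 and TAK1 pathway, 0 were called by edgeR in either direction, against 2.79% of all genes, with a median log2 fold change of 0.11. In 9 of them the groups did not overlap and were higher in the double heterozygous libraries, against 12% of all genes. At an unadjusted p under 0.05 there were 6, all higher, and DESeq2 called 1 and limma-voom 0. The receptors Tnfrsf1a (log2 fold change 0.06) and Tnfrsf1b (-0.03) overlapped between the groups. The BCL2 family and caspases had 0 calls among 27 tested by edgeR, DESeq2 or limma-voom and 4 at an unadjusted p under 0.05. Bax and Bcl2l1, which promote and oppose permeabilization of mitochondria, overlapped. Of 27 NF-kB subunits, inhibitors and targets, 2 were called higher and 0 lower, against 0.736% and 2.05% of all genes. The list median was 0.40. Without overlap 13 were higher and 1 lower, against 12% and 12.5% of all genes. The called genes were Nfkb2, the precursor of p52, at 44.7, 43.7 and 47.4 CPM against 95.7, 80.3 and 84.4 CPM, and Gadd45b, which rose by 1.67. Nfkb2 rose by 0.94, did not overlap between groups and overlaps a gene on the other strand. With a library left out, the call of Nfkb2 was kept in 0 of 6 fits and that of Gadd45b in 1.

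Among 27 cytokines and chemokines, 1 was called higher and 1 lower, against 0.736% and 2.05% of all genes. Cxcl10, the interferon-induced chemokine that attracts T cells, was at 1.37, 4.86 and 7.14 CPM against 18.4, 14.99 and 17.1 CPM. It rose by 1.93 (SE 0.43, edgeR adjusted p = 0.0209) with no overlap, and the call was kept in 2 of 6 fits with a library left out. Tnfsf9, a ligand of the TNF family, fell by 1.72, a call kept in 0 of 6 such fits. Tnf itself was at 15.1 to 22.6 CPM against 35.6 to 36.5 CPM without overlap, with an edgeR adjusted p of 0.260.

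**Figure D4:**
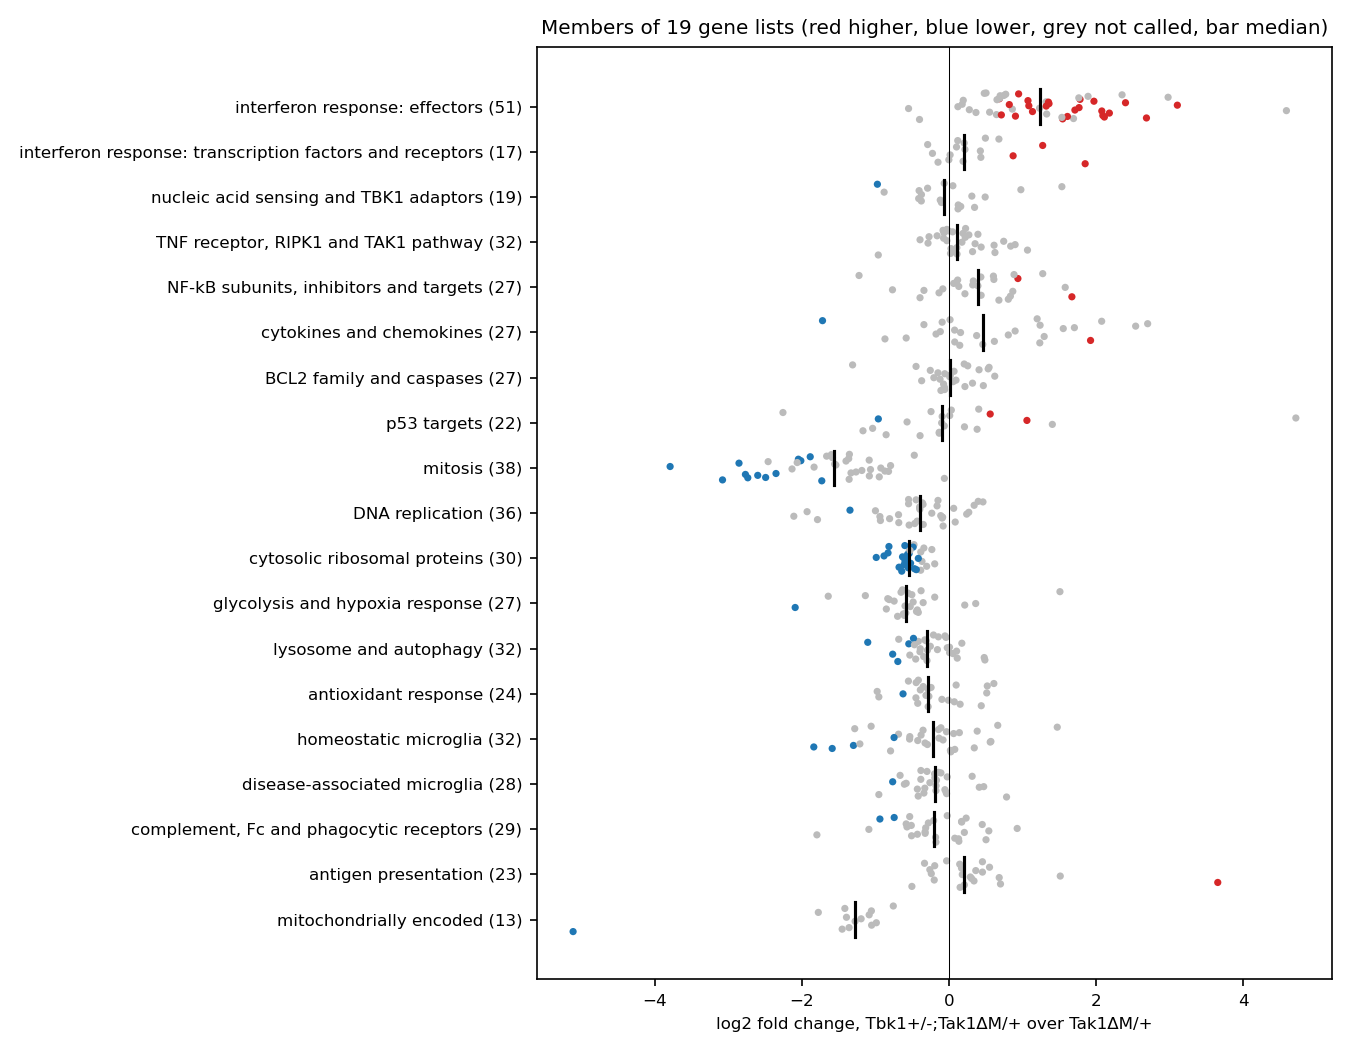
Each point is a tested member of 1 of 19 gene lists (number tested in brackets), placed by its log2 fold change, double heterozygous over Tak1ΔM/+, with red for called higher, blue for called lower and grey for not called. Black bars are list medians, at 1.23 for interferon effectors, -1.57 for mitosis and -0.54 for ribosomal proteins.

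Mitosis had the most negative median of all lists with more than 1 tested gene. Promoters of such genes often hold CCAAT boxes, and 3 of those whose genes fell are shown for that element, in the same window and build as above: Mki67 (chr7:135716380-135716629, minus strand), Ccnb2 (chr9:70421555-70421804, minus strand) and Ube2c (chr2:164769679-164769928, plus strand). Capitals mark CCAAT or its reverse complement ATTGG.
Mki67: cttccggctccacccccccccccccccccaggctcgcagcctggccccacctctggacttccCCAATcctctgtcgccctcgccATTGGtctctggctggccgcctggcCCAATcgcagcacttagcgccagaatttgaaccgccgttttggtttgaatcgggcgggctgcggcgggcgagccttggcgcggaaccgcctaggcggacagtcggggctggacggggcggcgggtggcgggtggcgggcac
Ccnb2: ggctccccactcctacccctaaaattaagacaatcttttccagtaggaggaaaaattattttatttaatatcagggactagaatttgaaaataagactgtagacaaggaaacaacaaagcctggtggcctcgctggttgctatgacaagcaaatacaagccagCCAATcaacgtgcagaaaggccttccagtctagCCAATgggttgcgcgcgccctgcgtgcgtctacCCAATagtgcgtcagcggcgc
Ube2c: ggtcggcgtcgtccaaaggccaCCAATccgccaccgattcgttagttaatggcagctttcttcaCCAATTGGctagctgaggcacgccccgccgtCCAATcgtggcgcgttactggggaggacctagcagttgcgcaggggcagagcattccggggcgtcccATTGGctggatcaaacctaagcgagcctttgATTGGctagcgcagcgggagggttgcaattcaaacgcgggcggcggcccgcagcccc

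Mki67 and Ccnb2 held 3 matches each and Ube2c held 6. CCAAT was present in 26 of the 33 mitosis genes with an entry (78.8%), 44.9% of genes called lower, 45.0% of genes called higher, 40.6% of all tested genes with an entry and 33.8% of all promoters.

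All 38 tested mitosis genes had a log2 fold change below 0, and 12 were called lower by edgeR, against 2.05% of all genes. In 24 of them the groups did not overlap, against 12.5% of all genes. Mki67, the proliferation marker that coats mitotic chromosomes, was at 11.5, 25.7 and 23.9 CPM against 1.27, 2.14 and 1.19 CPM, so all 3 double heterozygous libraries were low. It fell by 3.79 (SE 0.66) on the log2 scale with an edgeR adjusted p of 0.00519. Ube2c, the ubiquitin-conjugating enzyme of the anaphase-promoting complex, was at 6.88, 10.2 and 11.6 CPM against 1.64, 0.902 and 1.59 CPM. It fell by 2.73 (SE 0.43, edgeR adjusted p = 0.00211) without overlap.

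The mitotic cyclins Ccnb2, Ccnb1 and Ccna2 fell by 3.08, 2.85 and 2.35 on the log2 scale. The spindle motor Kif11 fell by 2.76, and Birc5 and Aurkb, of the chromosomal passenger complex, by 2.49 and 2.01. Tak1ΔM/+ replicate 1 was the lowest of its group for each of these. Summed over the list it was at 275 CPM, between 481 to 538 CPM in the other Tak1ΔM/+ libraries and 150 to 168 CPM in the double heterozygous libraries. The called count was 17 without that library, 2 without double heterozygous replicate 1, 3 with the mitochondrial share as a covariate and 0 in limma-voom. Mki67 and Ube2c were the members called whichever library was left out. DNA replication genes had 1 call of 36, a share close to the 2.05% of all genes called lower. The called gene was the thymidine kinase Tk1, which fell by 1.34 and overlaps a gene on the other strand.

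Genes of the cytosolic ribosome, whose proteins assemble with rRNA to translate mRNA, were lower by less than 1 on the log2 scale. Of 30 tested members 20 were called lower, against 2.05% of all genes, and all 30 were below 0. In 29 the groups did not overlap, against 12.5% of all genes, and the median log2 fold change was -0.54. Rpl32 was at 352, 363 and 349 CPM against 205, 157 and 215 CPM, a fall of 0.88 (SE 0.12, edgeR adjusted p = 0.00101); it overlaps a gene on the other strand. Rps7 was at 141, 150 and 141 CPM against 83.1, 71.7 and 88.6 CPM, a fall of 0.83 (SE 0.11). Both genes were low in all double heterozygous libraries. Over the alternatives 11 to 23 members were called lower, and 10 were called whichever library was left out. Here Tak1ΔM/+ replicate 1 lay with its group, at a sum of 7358 CPM against 7007 and 7106 CPM. Short transcripts were lower in general: among the 2687 genes with the shortest transcripts the median log2 fold change was -0.15, and among the 2686 with the longest it was 0.089. With an offset for length and GC content, added after the data were seen, 17 of the 30 were called and the median was -0.45.

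**Figure D5:**
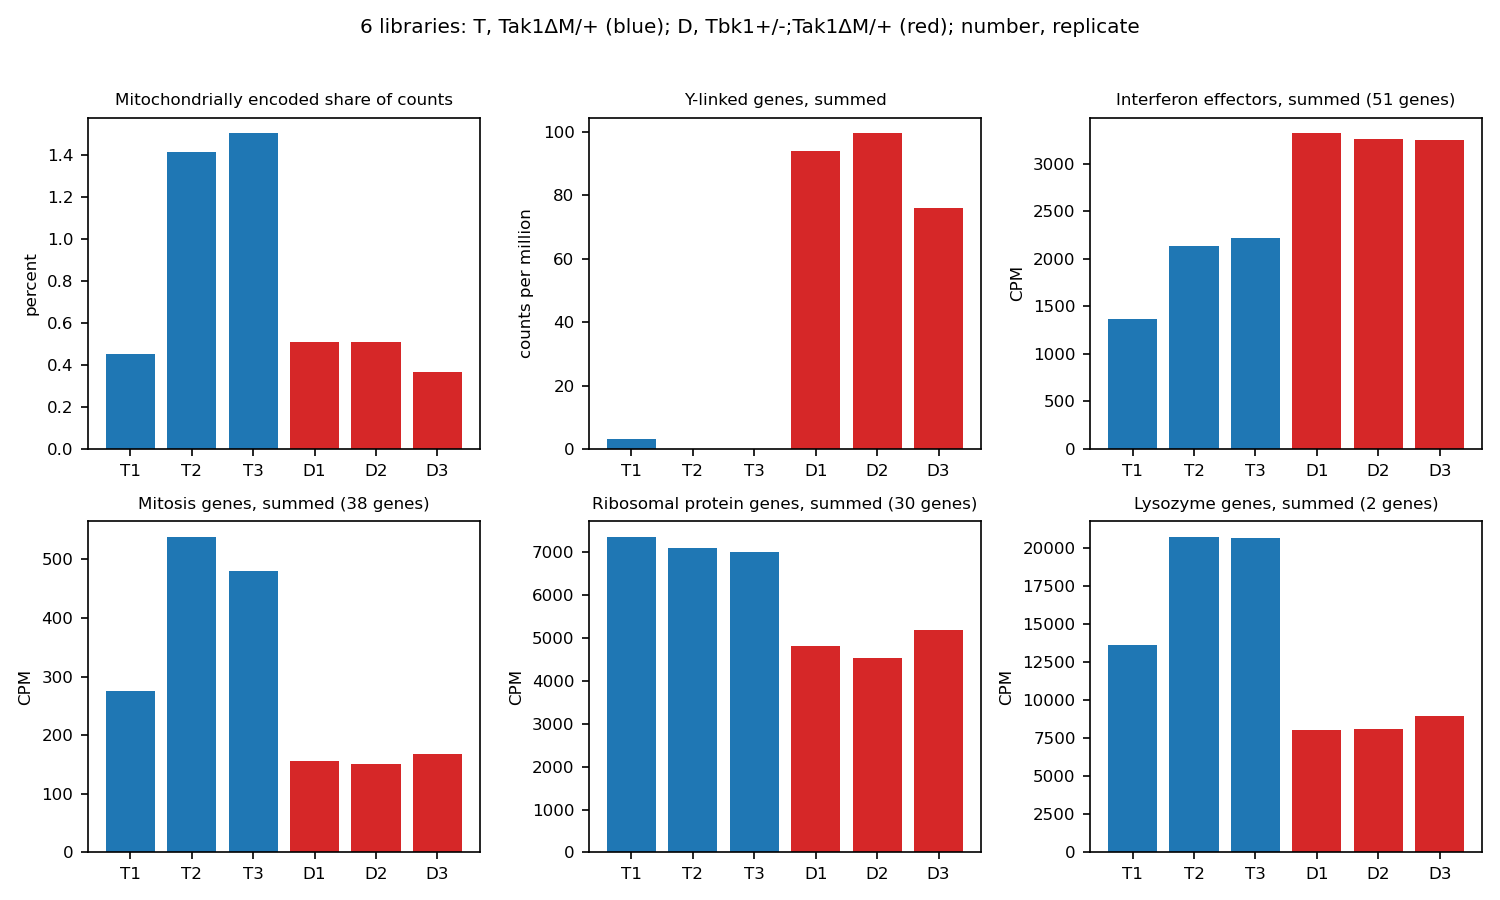
Bars give, for each of the 3 Tak1ΔM/+ (T, blue) and 3 double heterozygous (D, red) libraries, the mitochondrially encoded share of counts, unscaled Y-linked CPM and the summed CPM of 4 gene lists. T1 lies with the double heterozygous libraries in mitochondrial share (0.453%) and with its own group in ribosomal protein genes (7358 CPM).

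Some genes of microglial identity and of the lysosome were called lower. Of 32 homeostatic microglia genes 4 were called lower and 0 higher, against 2.05% and 0.736% of all genes. The list median was -0.21 on the log2 scale, and 11 members were above 0. Without overlap 13 were lower and 3 higher, against 12.5% and 12% of all genes. DESeq2 called 7 lower and 1 higher. Gpr34, a receptor for lysophosphatidylserine, was at 82.6, 88.4 and 102 CPM against 31.7, 25.5 and 19.4 CPM and fell by 1.83 (SE 0.26, edgeR adjusted p = 0.00139) without overlap. It overlaps a tested gene on the other strand. The sialic acid receptor Cd33 fell by 1.58, the purinergic receptor P2ry13 by 1.30 and Selplg, the ligand of selectins, by 0.74. Of 28 disease-associated microglia genes 1 was called lower, a share close to the 2.05% of all genes. The called gene was the protease Ctsd, at 15278, 14096 and 13966 CPM against 8545, 7628 and 9372 CPM.

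Of 32 lysosome and autophagy genes 5 were called lower and 0 higher, against 2.05% and 0.736% of all genes. Glb1, the lysosomal beta-galactosidase, was at 210, 198 and 188 CPM against 91.5, 85.7 and 101 CPM and fell by 1.10 without overlap of the groups. The gene overlaps a tested gene on the same strand. Lamp2 fell by 0.69 and Ctsh by 0.54. Of 29 complement, Fc and phagocytic receptors 2 were called lower and 0 higher, against 2.05% and 0.736% of all genes. Fcgr3 fell by 0.94 and the scavenger receptor Msr1 by 0.74. Without overlap 10 members were lower and 8 higher, against 12.5% and 12% of all genes. The list summed to 18317, 22240 and 22606 CPM against 22643, 22170 and 21786 CPM. The 2 lysozyme genes both fell. Lyz2, the main lysozyme of macrophages, was at 13578, 20666 and 20629 CPM against 8000, 8114 and 8923 CPM, a fall of 1.13 (SE 0.20, edgeR adjusted p = 0.00515). Its groups did not overlap, and its wild-type mean was 37149 ± 2162 CPM (SD, n = 3). In the triple genotype, also labelled Tak1ΔM/+ but with Tbk1 near wild type, Lyz2 averaged 40526 ± 2158 CPM. Lyz2 lies 4.26 Mb from Tbk1 on chromosome 10. LysM-Cre mice carry Cre in Lyz2, and the sources used here do not say whether that line was used, so a part of it in these values was not tested.

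Leukotriene synthesis had 2 genes among the largest falls. Alox5, which makes leukotrienes from arachidonic acid, was at 8.34, 13.3 and 15.1 CPM against 2.28, 0.676 and 0.647 CPM and fell by 3.29. Its partner Alox5ap was at 78.8, 126 and 119 CPM against 21.7, 19.2 and 28.97 CPM and fell by 2.21. The calcium-binding S100a4 and S100a6, listed as markers of border macrophages and monocytes, fell by 3.38 and 2.92. S100a4 was at 9.34, 48.2 and 52.8 CPM against 3.29, 2.71 and 4.38 CPM, with Tak1ΔM/+ replicate 1 nearest to the double heterozygous libraries. The 12 tested markers of that list summed to 1009, 1605 and 1626 CPM against 1313, 1271 and 1315 CPM. Among them 2 were called lower and 0 higher, against 2.05% and 0.736% of all genes. Arg1, of alternative activation, fell by 2.67, and Qpct and Tmem154 fell by 2.27 and 3.03. With a library left out, the call of Arg1 was kept in 1 of 6 fits and those of Qpct and Tmem154 in 6. In bulk RNA fewer cells of a type and less RNA per cell cannot be told apart.

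Among 22 p53 targets 2 were called higher and 1 lower. The kinase gene Plk2 rose by 1.06 and Mdm2, the p53 ubiquitin ligase, by 0.56, while Trp53inp1 fell by 0.96. With a library left out, these calls were kept in 2, 1 and 1 of 6 fits. Ddit3, the stress factor CHOP, rose by 1.29, the 1 call among 28 genes of ER stress and the integrated stress response. The immediate early genes Fos and Dusp1 rose by 0.93 and 0.83, the 2 calls among 28 of their list. These shares compare with 2.79% called among all genes. Ndrg1, induced by hypoxia, fell by 2.09 as the single call among 27 glycolysis and hypoxia genes, whose median was -0.58. In that list 18 were lower without overlap, against 12.5% of all genes, and the called count was 16 with the Y-linked covariate, 13 without the low-count filter and 12 with the 6 libraries alone. It was 0 in limma-voom.

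Markers of astrocytes, oligodendrocytes, neurons, fibroblasts and vessels summed to at most 174 CPM in a list. Ptprz1, a phosphatase of glia and their progenitors, led the 15 largest rises, at 0.820, 0.938 and 0.137 CPM against 9.49, 14.0 and 17.2 CPM. It rose by 4.37 (SE 0.95, edgeR adjusted p = 0.0192) without overlap, and the call was kept in 2 of 6 fits with a library left out. The 10 tested oligodendrocyte lineage markers summed to 120, 156 and 153 CPM against 172, 174 and 172 CPM, with 0 called by edgeR, 3 by DESeq2 and 4 higher at an unadjusted p under 0.05. Their median log2 fold change was 0.91, and 9 were above 0. Cnp and Mbp, whose groups overlapped, averaged 84.2 and 51.8 CPM against 88.6 and 52.5 CPM. The 9 tested astrocyte markers summed to 30.1, 44.2 and 52.4 CPM against 25.0, 30.7 and 32.9 CPM. Against the direction of these sums, Gfap, the filament protein of astrocytes, was called higher, with 0, 0 and 1 counts against 12, 18 and 26. The 11 tested fibroblast, mural and endothelial markers summed to 19.3, 22.6 and 22.6 CPM against 20.6, 14.8 and 19.5 CPM, and Lox, which crosslinks collagen, rose by 2.83 as the 1 call. The 7 tested neuron markers summed to 2.11 to 4.80 CPM against 6.62 to 8.80 CPM, with 0 called by edgeR or DESeq2 and 0 at an unadjusted p under 0.05. Dpysl3, a protein of growing neurites, rose by 3.05. In wild type Ptprz1 averaged 7.51 ± 5.54 CPM and Dpysl3 5.78 ± 2.78 CPM (SD, n = 3 each). Lox averaged 5.53 ± 3.53 CPM there and Gfap 1.35 ± 1.04 CPM. The double heterozygous means were 13.5, 9.30, 2.15 and 1.32 CPM in the same order. The Tak1ΔM/+ means, 0.632, 1.11, 0.300 and 0.0229 CPM, were below wild type for each. The part of other cells in these values was not tested.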

How the data were processed

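Smart-seq2 libraries (1 ng input RNA, 12 PCR cycles, paired 50-base reads) do not mark strand. Besides the genes flagged above, Ccna2, Tnfsf9, P2ry13, H2-Q4, Ddit3, Dusp1, Rps14, Cnp and Mbp overlap tested genes on the other strand. The deposited table gives unnormalized gene counts that the authors produced using STAR and featureCounts on mm10, per the submitters' processing notes, while the labels' protocols name RSEM. Versions, annotation and strand setting are not given in the sources used here. Symbols came from GENCODE M21 (50376 of 50686 identifiers); the 310 without a symbol held at most 0.00437% of a library's counts.

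Genes were filtered with filterByExpr over 6 genotypes and scaled by TMM, and CPM is scaled likewise. All 18 libraries entered 1 quasi-likelihood fit (edgeR 4.0.16, R 4.3.3), with Benjamini-Hochberg adjustment over 13447 genes. SE is the log2 fold change divided by the root of F. Alternatives used DESeq2 1.42.0, limma 3.58.1, other filters, covariates, a replicate block and libraries left out. On data simulated for this comparison over 13447 genes, 36 of 100 genes changed 2-fold and 63 of 100 changed 4-fold were recovered, with 4 false calls.

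Named genes were Tbk1, Map3k7, Ripk1, the 15 largest calls each way (mean over both groups 5 CPM or more, groups apart), and up to 4 called genes of each of 34 lists (2 by level where none was called). Predicted genes were left out, and some genes that the rule names are not reported here. Members and lists were chosen with earlier results of these data known. Counts come from amplified cDNA without molecular identifiers. Replicate libraries differed by more than counting noise, so none was treated as a duplicate.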

Additional observations from a re-analysis of the deposited data

Results flagged for a closer look

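The log2 fold change of the Tbk1 allele differed between microglia with and without the Tak1 allele for 34 of the 86 named genes, by the edgeR test of the difference itself. Adjusted p-values over all genes tested ran from 0.000645 to 0.0387. Values are the change with the Tak1 allele minus the change without it, on the log2 scale.

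The difference was above 0 for 12 genes, most of them of the interferon response: Ptprz1 (5.84), Dpysl3 (3.52), Lox (3.42), Ifit3b (3.37), Cxcl10 (3.22), Isg15 (3.13), Irf7 (2.13), Usp18 (2.08), Slfn8 (1.89), Ifi209 (1.73), Oas1a (1.31), Stat2 (1.26).

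It was below 0 for 22 genes, among them genes of mitosis and the ribosome: Rps14 (-0.69), Rpl32 (-0.96), Rps7 (-0.97), Glb1 (-1.11), Trp53inp1 (-1.63), S100a6 (-2.16), Gpr34 (-2.35), Tk1 (-2.38), Aurkb (-2.49), Alox5ap (-2.49), Qpct (-2.67), Ccna2 (-3.15), mt-Ta (-3.27), Ccnb1 (-3.49), Alox5 (-3.51), Birc5 (-3.51), Arg1 (-3.55), Kif11 (-3.69), Ube2c (-3.81), Ccnb2 (-3.97), mt-Nd3 (-5.21), Mki67 (-5.34).

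For none of the 34 did the change without the Tak1 allele pass the edgeR threshold on its own. Mki67, for example, changed by -3.79 with the Tak1 allele and by 1.55 without it (adjusted p = 0.356). The 34 genes were named for their change with the Tak1 allele, so their number says nothing about genes in general, of which 1.75% were called.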

How the results depend on the processing

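The count of 375 genes called was 754 in DESeq2, 868 without a filter on low counts, 876 with Y-linked expression as a covariate, 158 with the mitochondrial share as a covariate and 169 with a log2 fold change of at least 1. It ranged from 111 to 568 with 1 library left out. The count of 235 genes for the difference of the Tbk1 allele effect was 679 in DESeq2, 927 without the filter, 760 with the Y-linked and 19 with the mitochondrial covariate, 128 without the Ripk1 D138N genotypes, and 46 to 712 with 1 library left out. The highest came without Tbk1+/- replicate 2. The cause was not tested. Fits with fewer libraries also have fewer degrees of freedom.

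Replicate numbers did not pair the libraries. Same-numbered libraries had correlations of -0.027, 0.0054 and -0.054, and not every library correlated best with its own number. With the replicate block 328 genes were called, and 149 for the difference.

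None of the 69 called named genes changed direction under any alternative. In 1167 refits of them, 863 kept the call and 304 lost it. Isg15, Usp18, Oas1a, Oas1g, Irf7, Stat2, Slfn8, Ifi209, Gpr34, Rpl32 and Lyz2 are among those that kept it in all.

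Among named genes that were not called, the sign turned with the Y-linked covariate for Abca1 (-0.24), Ddx3y (-2.45), Xist (0.23) and Cnp (-0.034). It turned with the mitochondrial covariate for Tnfrsf1a (-0.020), Bcl2l1 (0.22), Msmo1 (0.041), Map2 (-0.063) and Tubb3 (-0.81), and with the length and GC offset for Mbp (-0.097). With 1 library left out it turned for some libraries, with ranges of -0.058 to 0.19 for Mbp, -0.13 to 0.17 for Tnfrsf1b, -0.24 to 0.43 for Abca1, -0.085 to 0.23 for Cnp and -0.0034 to 0.15 for Tnfrsf1a.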

Other observations

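Chromosomes differed in the share of genes called. The mitochondrial chromosome had 5 of 27 genes called lower (18.5%) and 0 higher, against 2.05% and 0.736% of all genes. Among 12 tested mitochondrial tRNAs 4 were called lower, and among 13 listed mitochondrially encoded genes 1. These 13 summed to 4171, 15065 and 16280 CPM against 4620, 4595 and 3296 CPM, with Tak1ΔM/+ replicate 1 within the double heterozygous range. The called gene, mt-Nd3, a subunit of complex I, was at 4.97, 4.75 and 7.41 CPM against 0, 0 and 0.398 CPM. The X chromosome had 21 genes called lower and 2 higher of 461 (4.99%), against 2.79% of all genes. Tlr7, Gpr34 and Lamp2 are among the 21. Within 5 Mb of Tbk1, 39 genes were tested. Of these 1 was called higher (Mdm2) and 2 lower (Lyz1 and Lyz2), against 0.736% and 2.05% of all genes. By symbol, a rule applied after the data were seen, 98 ribosomal protein genes were tested. Of these 46 were called lower and 0 higher, against 2.05% and 0.736% of all genes. Their median log2 fold change was -0.52.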
